A study of Mus musculus with 2 samples.

Results

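The genes described here are the 30 nuclear genes that code for structural subunits of respiratory complexes II, III, and V, among 32285 genes in the files. They were chosen by name and not by a limit on their values, but with earlier results of these data known. Of the 30 genes, 29 were found by symbol, and *Atp5pb* was found under its older symbol *Atp5f1*. They comprise 4 genes of complex II, 9 of complex III, and 17 of complex V. Droplet-based 3′ scRNA-Seq of whole retina was analyzed in 1 WT library and 1 ND6 library, each labelled replicate 1. The mice were male and aged 7 months, and the study's methods give C57BL/6J as the strain of the WT mice. The ND6 mice carry the P25L change in the mtDNA gene for subunit ND6 of complex I. Per the study's methods they derive from a fusion of female embryonic stem cells, and the line is kept by crossing mutant females to WT males. The number of such crosses is not given there. The number of mice behind a library is not given in the sources used here. A difference between the libraries cannot be told apart from a difference between mice, nuclear backgrounds, or preparations.

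Complex II, succinate dehydrogenase, oxidizes succinate in the TCA cycle and passes the electrons to ubiquinone, and all of its subunits are encoded in the nucleus. Complex III carries electrons from ubiquinol to cytochrome c and moves protons across the inner membrane, and complex V, ATP synthase, lets protons flow back through a rotating ring of c subunits to make ATP. Complexes III and V also hold mtDNA-encoded subunits, cytochrome b in the former and ATP6 and ATP8 in the latter. Photoreceptors are packed with mitochondria in their inner segments, and the ND6 mutation itself lies in complex I, which holds none of these subunits.

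Barcodes were kept as cells where they held over 400 UMIs (counted transcript molecules) and over 200 genes, with mtDNA-encoded genes giving no more than 20% of the UMIs, which left 12529 WT cells and 18395 ND6 cells with a median of 1878 and 1416 UMIs. The limit on mtDNA-encoded UMIs removed more barcodes from the WT library, since 23176 WT and 22256 ND6 barcodes passed the other 2 limits. Of the cell barcodes, 59 occurred in both libraries. Clusters were named from marker genes as rod-like (9810 WT and 13333 ND6 cells), cone-like (654 and 1146), bipolar-like (238 and 640), amacrine-like (79 and 300), Müller-like (36 and 91), macrophage- or microglia-like (259 and 144), and RPE-like (322 and 958; RPE, retinal pigment epithelium). Red blood cell-like barcodes (195 and 386) are not shown as a class, but they enter the values over all cells and the count of clusters given for *Sdhd*. A further 936 WT and 1397 ND6 cells stayed unnamed and also enter the values over all cells. A level is given as counts per 1000000 UMIs (CPM), with UMIs summed over the cells of a library. With 1 library per genotype no test was possible, and every interval is an exact 95% interval that covers counting error only. Levels of different genes are not compared, except in the shares of the subunit c genes, which rest on UMIs with no scaling between genes.

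Subunit c is the one subunit made from several of these genes, and its coding sequences show how 3 genes can make the same protein with different bases. *Atp5g1* (chr11:96068852-96075670, minus strand), *Atp5g2* (chr15:102662864-102672352, minus strand), and *Atp5g3* (chr2:73908447-73911326, minus strand, all mm10) code for precursors of 136, 146, and 141 residues. Their translations were identical over the last 78 residues, which hold the mature subunit, and differed in the import sequence before it. Over the 234 bases behind those residues, 63 positions differed, and the pairs shared 84.6% of bases (*Atp5g1* and *Atp5g2*), 78.6% (*Atp5g1* and *Atp5g3*), and 77.4% (*Atp5g2* and *Atp5g3*). The last 50 codons before the stop codon are shown from the coding exons of the GENCODE transcripts, with the 39 positions at which the genes differ in capitals.
Atp5g1: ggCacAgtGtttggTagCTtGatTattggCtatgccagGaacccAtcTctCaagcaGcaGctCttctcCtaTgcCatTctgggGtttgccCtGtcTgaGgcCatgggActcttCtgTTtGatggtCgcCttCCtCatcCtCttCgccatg
Atp5g2: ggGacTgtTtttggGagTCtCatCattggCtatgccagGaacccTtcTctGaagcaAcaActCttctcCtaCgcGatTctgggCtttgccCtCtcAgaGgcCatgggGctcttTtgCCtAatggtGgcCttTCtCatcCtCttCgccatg
Atp5g3: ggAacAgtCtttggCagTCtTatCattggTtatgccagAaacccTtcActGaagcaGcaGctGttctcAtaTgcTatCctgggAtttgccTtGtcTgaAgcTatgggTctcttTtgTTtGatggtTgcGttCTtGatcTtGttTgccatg

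Promoter windows from RefSeq (GRCm38.p6), from 250 bases before to 50 after each start, were matched for 23 of the 30 genes, and not for *Sdhc*, *Uqcrc2*, *Cyc1*, *Uqcrb*, *Uqcrq*, *Atp5a1*, and *Atp5mpl*. On either strand, the letters GCGC followed after any 2 bases by GCGC again, a motif of the nuclear respiratory factor NRF1, occurred in the windows of 9 of the 23 genes (39.1%) and of 9.61% of 17492 protein-coding genes. The letters CCGGAAG, a motif of ETS factors such as GABP, occurred in 10 (43.5%, against 12.9%), and AANATGGCG, a motif of YY1, in 3 (13.04%, against 3.64%). In all, 18 of the 23 genes held at least 1 of the motifs, against 22.9% of the protein-coding genes, and no motif overlapped another in the 26 member windows. The 85 bases before the start are printed for *Sdhd*, the gene that stood apart between the libraries, and for *Uqcr11*, the gene that stood apart between cell classes, with NRF1 and ETS motifs in capitals. The *Sdhd* stretch (chr9:50603850-50603934, minus strand) held 1 of each, and its first 25 bases lie inside *Timm8b*, which is read in the other direction. The *Uqcr11* stretch (chr10:80406822-80406906, minus strand) held 1 ETS motif. A match of letters is not evidence of binding.
Sdhd: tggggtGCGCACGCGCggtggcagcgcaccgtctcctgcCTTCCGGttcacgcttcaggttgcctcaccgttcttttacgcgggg
Uqcr11: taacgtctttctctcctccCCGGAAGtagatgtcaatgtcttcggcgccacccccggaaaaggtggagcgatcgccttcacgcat

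Over all cells, *Sdhd* was lower in the ND6 library and nearly all other subunit genes were slightly higher. Of the 30 genes, 25 were higher and 5 lower, with a median log2 ratio of ND6 over WT of 0.16. The median of all genes with at least 500 UMIs was 0.01, and that of the 81 cytosolic ribosomal protein genes with at least 100 UMIs was 0.13, so the subunit genes and the ribosomal protein genes stood at a like distance from all genes. Only *Atp5g1* was higher by at least 0.32 on the log2 scale, the size used here to count a difference, where 18.5% of all 10217 genes were, and only *Sdhd* was lower by as much, where 13.5% of all genes were. Together the members took 1.09% of WT UMIs and 1.19% of ND6 UMIs. Beside this, the Malat1 share of UMIs was 3.15% in WT and 2.69% in ND6, the mtDNA-encoded share 8.19% and 7.02%, the ribosomal protein share 7.25% and 7.93%, and the share of the 8 rod markers 5.25% and 5.91%. The part of these in the differences was not tested.

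**Figure D1:**
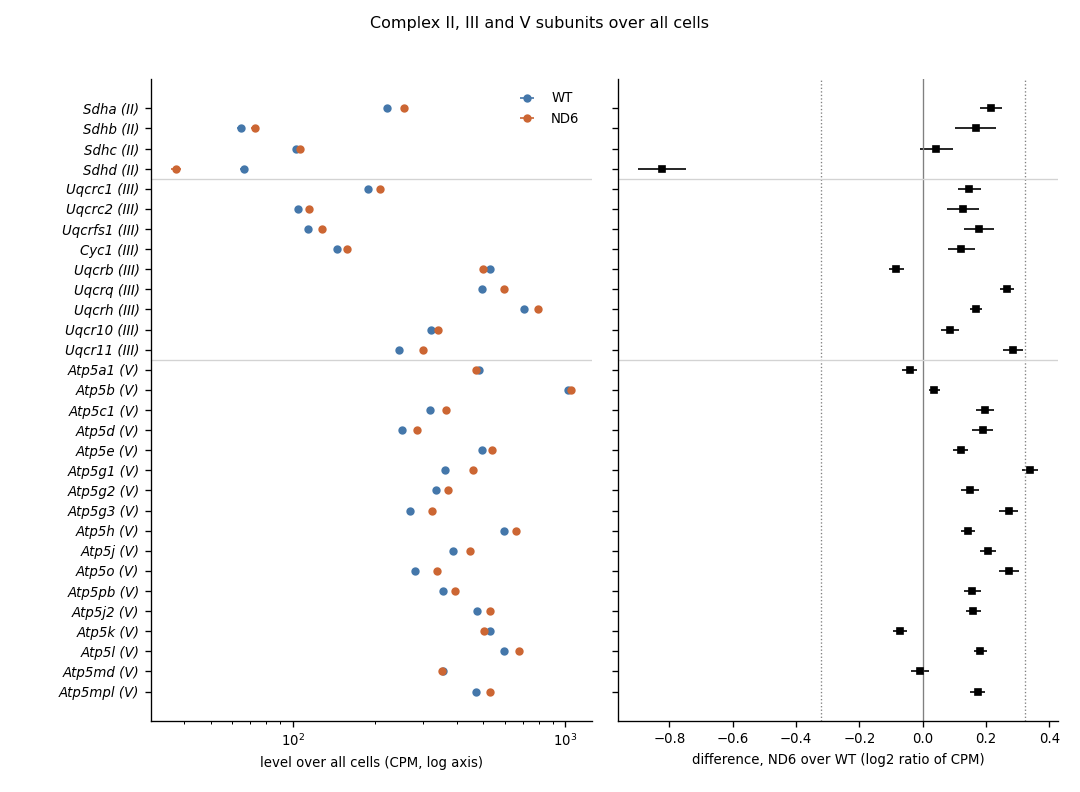
Left, level of each gene over all cells in WT (blue) and ND6 (orange), in CPM on a log axis. Right, log2 ratio of ND6 over WT with its exact 95% interval, with dotted lines at −0.32 and 0.32. *Sdhd* lies alone on the left at −0.82, and the other 29 genes lie between −0.08 and 0.34.

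Within complex II, the 4 genes did not move alike. *Sdha*, the flavoprotein that binds succinate, stood at 221 CPM in WT and 257 CPM in ND6, a log2 ratio of 0.22 (0.18 to 0.25). *Sdhb*, the iron-sulphur protein that relays the electrons, stood at 64.8 and 72.7 CPM, a log2 ratio of 0.17 (0.10 to 0.23). The remaining 2 genes code for the membrane anchors that hold heme and the ubiquinone site. *Sdhc* stood at 103 and 106 CPM, a log2 ratio of 0.04 with an interval that includes 0 (−0.01 to 0.09). *Sdhd* stood at 66.1 CPM in WT from 3603 UMIs and at 37.3 CPM in ND6 from 2351 UMIs, a log2 ratio of −0.82 (−0.90 to −0.75). The anchor partners therefore differed, with 1 level with WT and the other well below it.

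Within complex III, 8 of 9 genes were higher in ND6 and 1 was lower. The core proteins *Uqcrc1* and *Uqcrc2*, which flank the matrix side of the complex, had log2 ratios of 0.15 (188 and 208 CPM) and 0.13 (105 and 115 CPM). *Uqcrfs1*, the Rieske iron-sulphur protein, stood at 114 CPM in WT and 128 CPM in ND6 (log2 ratio 0.18), and *Cyc1*, cytochrome c1, at 145 and 158 CPM (0.12). The catalytic and core genes thus spanned a narrow range. The small subunits spread more widely. *Uqcr11* stood at 246 CPM in WT and 299.99 CPM in ND6, a log2 ratio of 0.29 (0.25 to 0.32), and *Uqcrq* at 496 and 596 CPM, a log2 ratio of 0.27 (0.24 to 0.29). *Uqcrh*, the hinge protein at the cytochrome c1 site, stood at 705 and 792 CPM (0.17), and *Uqcr10* at 322 and 342 CPM (0.09). *Uqcrb*, the ubiquinone-binding subunit, was the one gene of the complex below WT, at 527 and 497 CPM, a log2 ratio of −0.08 (−0.11 to −0.06).

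Within complex V, 14 of 17 genes were higher in ND6. Of the F1 head, which makes ATP in the matrix, the catalytic *Atp5b* stood at 1019 CPM in WT and 1045 CPM in ND6 (log2 ratio 0.04), and *Atp5a1*, its noncatalytic partner, at 484 and 470.2 CPM (−0.04). The central stalk genes *Atp5c1*, *Atp5d*, and *Atp5e*, which turn inside the head, had log2 ratios of 0.20 (319 and 366 CPM), 0.19 (251 and 286 CPM), and 0.12 (495 and 537 CPM). Head genes therefore lay near 0 and stalk genes above it. Of the c ring, *Atp5g1* stood at 362 and 458 CPM, a log2 ratio of 0.34 (0.31 to 0.37), *Atp5g3* at 269.6 and 325 CPM, a log2 ratio of 0.27 (0.24 to 0.30), and *Atp5g2* at 335 and 371 CPM, a log2 ratio of 0.15 (0.12 to 0.18).

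The peripheral stalk keeps the head from turning with the ring. Its genes *Atp5o* (280.0 CPM in WT and 338 CPM in ND6), *Atp5j* (387 and 446), *Atp5pb* (354 and 395), and *Atp5h* (597 and 659) had log2 ratios of 0.27, 0.21, 0.16, and 0.14. All 4 stalk genes were thus higher in ND6. Of the small membrane subunits, *Atp5l* (596 and 676 CPM), *Atp5mpl* (469 and 529 CPM), and *Atp5j2* (474 and 529.9 CPM) had log2 ratios of 0.18, 0.17, and 0.16. *Atp5k*, subunit e, which takes part in pairing of the synthase, was lower at 531 and 505 CPM, a log2 ratio of −0.07 (−0.10 to −0.05), and *Atp5md* did not differ beyond counting error at 356 and 353 CPM (−0.01; −0.04 to 0.02). Of the 30 genes, *Uqcrc2*, *Uqcrb*, *Atp5a1*, *Atp5d*, *Atp5j*, *Atp5o*, *Atp5pb*, *Atp5l*, and *Atp5md* overlap a gene of the other strand that the files also hold. Whether counting used the strand is not given in the sources used here, so their values are uncertain to that extent.

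*Sdhd* was lower in ND6 in all 7 classes. It stood at 65.3 CPM in WT and 38.7 CPM in ND6 in rod-like cells, a log2 ratio of −0.76 (−0.85 to −0.66), and at 65.1 and 32.2 CPM in cone-like cells, a log2 ratio of −1.02 (−1.19 to −0.85). In bipolar-like cells it stood at 72.3 and 41.3 CPM (−0.81; −1.16 to −0.46), in amacrine-like cells at 60.9 and 35.0 CPM (−0.80; −1.37 to −0.22), and in RPE-like cells at 100.3 and 68.7 CPM (−0.55; −0.90 to −0.20). Those 5 classes had at least 100 UMIs of the gene, and their intervals all lay below 0. The RPE-like ratio did not hold within clusters, at −0.12 (−0.58 to 0.35) in the larger cluster and 0.01 (−1.89 to 1.40) in the smaller one, which held 116 of the 179 WT UMIs but 4 of the 117 ND6 UMIs, and it was −0.069 with clusters weighted alike. Over all alternatives the ratio ran from −0.81 to −0.57 in rod-like, −1.03 to −0.68 in cone-like, −0.83 to −0.51 in bipolar-like, and −0.97 to −0.15 in amacrine-like cells. In Müller-like cells the ratio rested on 54 WT and 8 ND6 UMIs (−1.63; −2.91 to −0.55), and in macrophage- or microglia-like cells on 47 and 10 UMIs (−0.86; −2.01 to 0.15). Of the other 29 genes, none had the same sign in every class in which it had 100 UMIs. Over the 22 clusters with at least 20 UMIs of *Sdhd*, 19 had it lower in ND6, and the intervals of 14 of these lay below 0. Among the other 5 was a rod-like cluster at −0.02 (−0.49 to 0.46). In the remaining 3 clusters, an RPE-like, a bipolar-like, and the red blood cell-like one, it was higher by at most 0.07 with intervals that include 0.

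The *Sdhd* gene (chr9:50596357-50603812, minus strand, mm10) overlaps no other annotated gene, and its neighbors did not share its difference. *Timm8b*, an import chaperone gene that starts 97 bases away and is read in the other direction, stood at 190.2 CPM in WT and 210.3 CPM in ND6, a log2 ratio of 0.15 (0.11 to 0.18). Of the 7 other genes within 100 kb that had at least 500 UMIs, 3 were higher and 4 lower, from −0.29 for *Nkapd1* to 0.20 for *Il18*. *Dlat*, a pyruvate dehydrogenase subunit gene, stood at 48.5 and 46.4 CPM (−0.06). In barcodes of 10 to 100 UMIs, which hold mostly free RNA, *Sdhd* was counted 14 times in WT and 10 times in ND6, or 61.9 and 25.7 CPM, a log2 ratio of −1.27 with an interval that reaches 0 (−2.60 to 0.01).

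**Figure D2:**
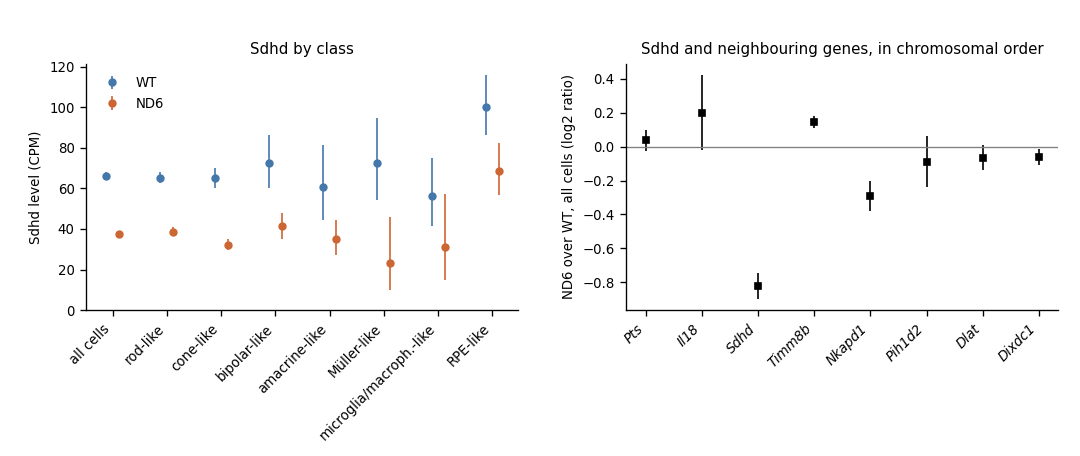
Left, level of *Sdhd* in CPM over all cells and in each class, WT in blue and ND6 in orange, with exact 95% intervals. Right, log2 ratio of ND6 over WT over all cells for *Sdhd* and its neighbors in the order of their position. *Sdhd* lies at −0.82 and its neighbors between −0.29 and 0.20.

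Apart from *Sdhd*, the direction of the difference between the libraries changed with the class. In rod-like cells 28 of 30 genes were higher in ND6, with a median log2 ratio of 0.23 (all genes −0.02, ribosomal protein genes 0.20), 5 at least 0.32 higher (19.2% of 10858 genes) and 1 lower (17.7%). The highest were *Atp5g1* (348 and 479 CPM, 0.46), *Uqcr11* (217 and 294 CPM, 0.43), and *Atp5o* (290.1 and 382 CPM, 0.40), and the lowest after *Sdhd* were *Atp5a1* (483 and 481 CPM, −0.01) and *Uqcrb* (547 and 553 CPM, 0.02). *Sdha* stood at 224 and 262 CPM (0.22), *Sdhb* at 60.2 and 74.0 CPM (0.30), *Atp5g2* at 338 and 390.2 CPM (0.21), and *Atp5g3* at 252 and 323 CPM (0.36). The rod result depends on the clustering: with genes scaled over both libraries together, which named 4203 WT and 9912 ND6 cells as rod-like, the median turned to −0.16, and *Atp5o*, *Uqcr11*, and *Atp5g1* to −0.13, −0.099, and −0.016. At Leiden resolution 2, with 5875 and 9583 cells, the median was 0.071.

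Rod-like cells were also split at the median of their Malat1 share (0.364%), a split added after the data were seen, since Malat1 is a nuclear RNA. The members took 1.58% of WT and 1.67% of ND6 UMIs in the low-Malat1 cells, and 0.915% and 1.11% in the high-Malat1 cells. In the low-Malat1 cells the median log2 ratio of ND6 over WT was 0.09 with all genes at 0.10, and in the high-Malat1 cells it was 0.24 with all genes at −0.08. *Sdhd* was lower in ND6 in both, at −0.53 and −0.82. The high-Malat1 cells were 4199 of the WT and 7370 of the ND6 rod-like cells, with a median of 3503 and 1386 UMIs. From low-Malat1 to high-Malat1 cells, 26 of the 30 genes were lower in WT (median −0.85) and 29 in ND6 (median −0.59). The steepest drops in WT were those of short messages such as *Atp5e* (−1.15), while *Uqcrc2* (0.49) and *Sdhd* (0.37) were higher. Spearman's rho between annotated transcript length and this ratio was 0.59 in WT and 0.49 in ND6. Between that length and the all-cell ratio of ND6 over WT it was 0.01. These values are across the 30 genes, which are not independent replicates. The length was that of the annotated transcript with the longest coding sequence, which may not be the isoform expressed.

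Cone-like cells followed rod-like cells, with 23 of 30 genes higher in ND6 and a median of 0.16 (all genes −0.03, ribosomal protein genes 0.25). Of these, 3 were at least 0.32 higher (14.8% of 10042 genes) and 1, *Sdhd*, at least 0.32 lower (16.4%). *Atp5g1* (353 and 449 CPM, 0.35), *Uqcr11* (209 and 265 CPM, 0.34), and *Uqcrq* (428 and 538 CPM, 0.33) were the highest. The lowest after *Sdhd* were *Uqcrb* (441 and 409 CPM, −0.11) and *Uqcrc2* (117 and 111 CPM, −0.08). *Atp5g2* stood at 292 and 331 CPM, *Atp5g3* at 277 and 332 CPM, *Sdha* at 229 and 269 CPM, and *Sdhb* at 65.2 and 64.1 CPM.

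In amacrine-like cells the genes leaned the other way. Of the 30, 28 were lower in ND6, with a median of −0.31 (all genes −0.02, ribosomal protein genes 0.09), and the intervals of 19 lay below 0, as did those of 19.6% of all genes. None was at least 0.32 higher (22.2% of 5230 genes) and 15 were at least 0.32 lower (24.2%), 11 of them in complex V. *Atp5md* stood at 555 CPM in WT and 343 CPM in ND6 (−0.69; −0.87 to −0.51), and *Atp5g3* at 568 and 372 CPM (−0.61; −0.79 to −0.43). The top of the range was held by *Uqcrc1* (158 and 171 CPM, 0.11), *Sdha* (235 and 239 CPM, 0.02), and *Uqcrq* (433 and 423 CPM, −0.03), whose intervals include 0. *Sdhb* (100.1 and 83.9 CPM), *Atp5g1* (341 and 293 CPM), and *Atp5g2* (341 and 311 CPM) lay between these. The WT amacrine-like cells were fewer and deeper, with a median of 7533 UMIs against 3986.5 in ND6, and the rod markers took 1.39% of their UMIs against 2.21%. At Leiden resolution 2 the class fell into 2 clusters that the libraries filled differently, with 62 WT and 138 ND6 cells in one and 17 WT and 159 ND6 cells in the other. Within the first, at a median of 7196 and 7542 UMIs, 27 of 30 genes were lower in ND6, with a median of −0.28. Within the second, at 8025 and 1528 UMIs, 26 were lower, with a median of −0.45. No share of all genes is given beside these 2 counts. *Atp5g3* stood at −0.59 and −0.62 and *Atp5md* at −0.58 and −0.93, with intervals below 0, so the lower levels were also seen within each cluster. *Sdhd* stood at −0.42 (−1.09 to 0.26) in the first. The part of the rod markers in the difference was not tested.

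In bipolar-like cells 23 of 30 genes were lower in ND6, with a median of −0.07 (all genes 0.05). None was at least 0.32 higher (19.6% of 7808 genes) and 5 were at least 0.32 lower (11.2%), *Sdhd*, *Atp5mpl* (675 and 521 CPM, −0.37), and *Atp5md* (443 and 344 CPM, −0.36) at their head. *Sdhb* (68.8 and 78.5 CPM, 0.19), *Sdha* (219.9 and 248 CPM, 0.17), and *Uqcrc1* (148 and 161 CPM, 0.12) were the highest, all with intervals that include 0. *Atp5g1*, *Atp5g2*, and *Atp5g3* had log2 ratios of 0.07, 0.05, and −0.09, with intervals that include 0. The libraries mixed the 5 bipolar-like clusters differently, since 1 held 70 WT and 50 ND6 cells and the other 4 held more ND6 than WT cells. Within single clusters the median over the genes lay between −0.08 and 0.08. *Atp5mpl* did not differ beyond counting error in any of them (−0.32 to 0.09), while *Atp5k* was lower in all 5 (−0.52 to −0.29), with intervals below 0 in 3.

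In RPE-like cells the direction depended on how 2 clusters were mixed. Summed over both, 24 of 30 genes were lower in ND6, with a median of −0.13. None was at least 0.32 higher (16.4% of 4705 genes) and 3 were at least 0.32 lower (17.2%), namely *Sdhd*, *Uqcrfs1* (206 and 150.3 CPM, −0.46), and *Atp5md* (803 and 620.5 CPM, −0.37). The smaller cluster gave 98 cells to the WT sum and 4 to the ND6 sum. Within it, 14 of 30 genes were higher and 16 lower in ND6, with a median of −0.20. No share of all genes is given for single clusters. In the larger cluster, with 224 WT and 954 ND6 cells, 23 of 30 genes were higher in ND6, the intervals of 17 lay above 0 and those of none below, and the median was 0.22. There *Atp5md* stood at 0.21 (0.05 to 0.37) and *Uqcrfs1* at −0.21 with an interval that includes 0 (−0.51 to 0.09). Of the genes named in every class, the subunit c genes and *Sdhb* turned in the same way. *Sdha* turned the other way, from 0.08 in the sum to −0.18 in the larger cluster (168 WT and 290 ND6 UMIs). *Atp5g1* stood at 805 CPM in WT and 772 CPM in ND6 when summed, but at 0.49 (0.33 to 0.65) in the larger and 0.50 (0.04 to 0.92) in the smaller cluster. *Atp5g2* (442 and 427 CPM) and *Atp5g3* (410.1 and 335 CPM, −0.29) stood at 0.25 (0.06 to 0.45) and 0.11 (−0.10 to 0.33) in the larger cluster, and *Sdhb* (138 and 123 CPM) at 0.37 with an interval that includes 0. Summed over both clusters, *Atp5o* (348 and 375 CPM, 0.11), *Sdha* (165 and 174 CPM, 0.08), and *Uqcrh* (879 and 894 CPM, 0.02) were the highest, with intervals that include 0. With clusters weighted alike in both libraries the median was 0.080 and *Atp5md* stood at 0.18.

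In Müller-like cells, with 36 WT and 91 ND6 cells and a median of 10130 and 1645 UMIs, 28 of the 30 genes had at least 100 UMIs, 18 of them higher in ND6. Of these, 5 were at least 0.32 higher (15.9% of 2191 genes) and 1 at least 0.32 lower (28.8%), with a median of 0.09. *Atp5g1* (239 and 392 CPM, 0.72), *Uqcrq* (322 and 494 CPM, 0.62), and *Atp5j* (279 and 415 CPM, 0.57) were the highest, with intervals above 0. *Uqcrc2* (122 and 79.0 CPM, −0.63), *Atp5g3* (283 and 237 CPM, −0.26), and *Atp5a1* (408 and 342 CPM, −0.25) were the lowest, with intervals that include 0. *Sdha* (208 and 193 CPM) and *Atp5g2* (311 and 295 CPM) differed by less than counting error, and *Sdhb* had 59 and 21 UMIs.

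In macrophage- or microglia-like cells, 26 of the 30 genes had at least 100 UMIs, and 22 of these were higher in ND6, with a median of 0.20. At least 0.32 higher were 9 (20.6% of 1844 genes) and at least 0.32 lower none (22.9%). *Atp5d* (186 and 286 CPM, 0.62), *Sdha* (132 and 199 CPM, 0.60), and *Atp5g1* (250.2 and 364 CPM, 0.54) were the highest, with intervals above 0. *Uqcrc1* (131 and 124 CPM), *Uqcrb* (384 and 373 CPM), and *Atp5md* (271 and 264 CPM) were the lowest and differed by less than counting error, as did *Atp5g2* (370.0 and 367 CPM) and *Atp5g3* (153 and 162 CPM). *Sdhb* had 55 and 27 UMIs.

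**Figure D3:**
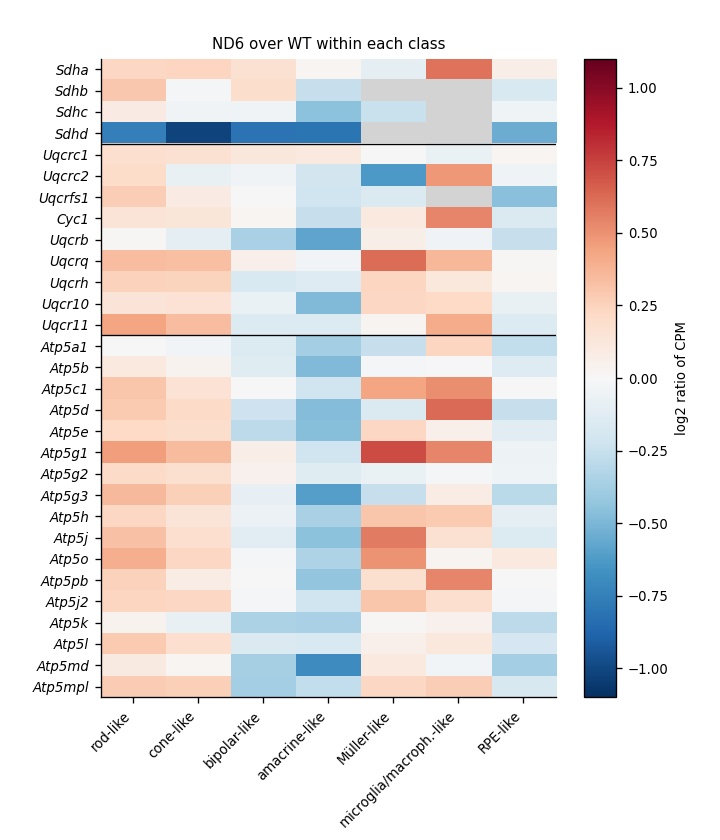
Log2 ratio of ND6 over WT for each gene (rows, complexes II, III, and V from top to bottom) in each class (columns), red for higher and blue for lower in ND6, and grey where both libraries together had under 100 UMIs. The *Sdhd* row is blue in every class drawn, while the rod-like column is mostly red and the amacrine-like column mostly blue.

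Between cell classes, the RPE-like cells stood apart from the photoreceptors. Relative to rod-like cells of the same library, 21 of the 30 genes were higher in both libraries and 3 lower, counting a direction as shared where the sign was the same and both intervals left out 0. By the same rule 13.0% of all 6890 genes were higher in both and 46.2% lower. The median log2 ratio of the members was 0.65 in WT and 0.30 in ND6 (all genes −0.52 and −0.41). *Uqcr11* differed most, at 911.5 CPM in RPE-like against 217 CPM in rod-like WT cells, a log2 ratio of 2.07 (1.99 to 2.15), and at 821 against 294 CPM in ND6, a log2 ratio of 1.48 (1.40 to 1.56). By the mean of both libraries *Uqcr10*, another small subunit of complex III, followed at 1.19 and 0.97, and then *Atp5md*, a small membrane subunit of complex V, at 1.22 and 0.75.

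The 3 genes that were lower in RPE-like than in rod-like cells code for large catalytic or core proteins, but not all genes of large subunits were lower. *Atp5a1* stood at 0.23 (0.14 to 0.32) in WT and at −0.03 in ND6, where its interval includes 0. *Sdha* stood at −0.44 in WT and −0.59 in ND6, while its direct partner *Sdhb* stood at 1.20 and 0.74, so the catalytic subunits of complex II went in opposite directions in both libraries. *Atp5b* stood at −0.13 and −0.38, and *Uqcrc1* at −0.18 and −0.34. Its fellow core gene *Uqcrc2* was higher, at 0.52 and 0.26. The RPE-like cells were of 2 kinds. The larger cluster (224 WT and 954 ND6 cells) had rod markers at 4.17% and 3.35% of UMIs, and its members stood at a median of 0.29 and 0.30 over rod-like cells. The smaller cluster (98 WT and 4 ND6 cells) had rod markers at 0.388% in WT, and its median in WT was 0.96. *Uqcr11* stood at 1.34 in WT and 1.47 in ND6 in the larger cluster and at 2.52 in WT in the smaller one, *Sdhb* at 0.65, 0.73, and 1.57, and *Sdha* at −0.19, −0.59, and −0.72. *Uqcr11* and *Sdhb* were thus higher than in rod-like cells in each of these 3 sets of cells with intervals above 0, while the interval of *Sdha* in the larger WT cluster includes 0 (−0.42 to 0.03). The 4 ND6 cells of the smaller cluster gave too few UMIs to place *Sdha* or *Sdhb* (6 and 5 UMIs).

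In Müller-like and in macrophage- or microglia-like cells the genes were mostly lower than in rod-like cells. None of the members was higher in both libraries. In Müller-like cells 18 were lower in both, where 11.6% of all 6737 genes were higher and 7.79% lower. In macrophage- or microglia-like cells 20 were lower in both, where 7.33% of all 6726 genes were higher and 20.2% lower. Medians were −0.43 in WT and −0.48 in ND6 for Müller-like cells, and −0.48 and −0.40 for macrophage- or microglia-like cells (all genes 0.14 and 0.05, and −0.46 and −0.33). The lowest in Müller-like cells were *Atp5o* (−0.98 and −0.88), *Atp5b* (−0.71 and −0.83), and *Uqcrh* (−0.71 and −0.74). In macrophage- or microglia-like cells they were *Atp5g3* (−0.72 and −0.997), *Atp5o* (−0.57 and −0.94), and *Atp5b* (−0.66 and −0.76). *Atp5b*, the catalytic gene of ATP synthase, was thus among the lowest in both. *Sdha* was lower in the macrophage- or microglia-like cells (−0.77 and −0.39) and *Sdhb* did not differ beyond counting error there (0.13 and 0.18). The median of the macrophage- or microglia-like cells lay near that of all genes.

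In cone-like cells 17 of the members were lower than in rod-like cells in both libraries (12.5% of all 7705 genes) and none was higher (51.0%). Medians were −0.11 in WT and −0.22 in ND6 (all genes 0.21 and 0.24). *Uqcrh* (−0.44 and −0.45), *Atp5k* (−0.33 and −0.44), and *Uqcrb* (−0.31 and −0.43) were the lowest, and *Sdha* stood level (0.03 and 0.04). In bipolar-like and amacrine-like cells most genes had no shared direction. In bipolar-like cells 4 were higher in both libraries (27.3% of all 7029 genes) and 5 lower (15.5%), and in amacrine-like cells 3 were higher (22.2% of 6864) and 3 lower (17.2%). *Uqcrc2* was higher than in rod-like cells in both classes, at 0.62 in WT and 0.38 in ND6 in bipolar-like and at 0.85 and 0.44 in amacrine-like cells, while *Uqcrc1* was lower, at −0.39 and −0.45 and at −0.29 and −0.36. The core proteins of complex III, which sit side by side in the assembled complex, thus differed in direction in bipolar-like, amacrine-like, and RPE-like cells. *Uqcrfs1* (0.43 and 0.15) was higher in bipolar-like cells, and *Cyc1* (0.61 and 0.21) in amacrine-like cells. *Uqcrh* (−0.22 and −0.65, and −0.16 and −0.56) and *Uqcrq* (−0.24 and −0.53, and −0.24 and −0.61) were lower in bipolar-like and amacrine-like cells.

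**Figure D4:**
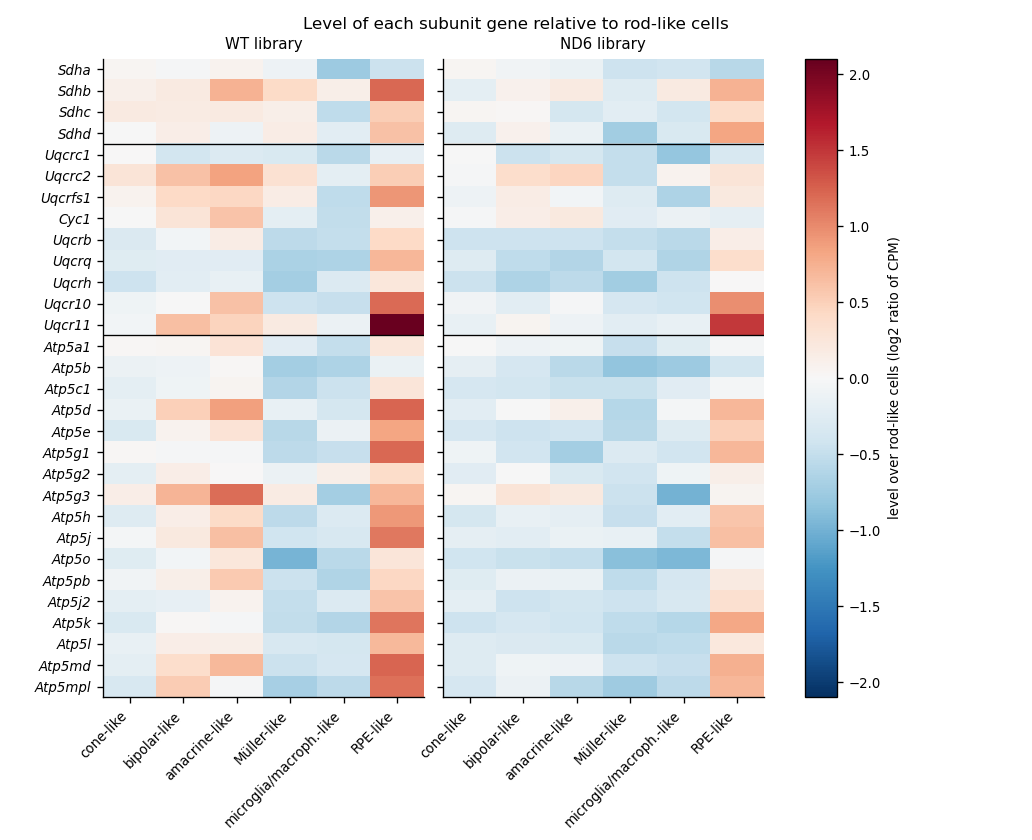
Log2 ratio of the level in each class over the level in rod-like cells of the same library, WT on the left and ND6 on the right, red for higher and blue for lower than in rod-like cells. The RPE-like column is mostly red, with *Sdha*, *Uqcrc1*, and *Atp5b* blue in both libraries and *Cyc1* blue in ND6 (−0.19), and *Uqcr11* is highest there at 2.07 and 1.48.

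The subunit c genes were used in different proportions by different classes, although the mature protein is the same. In rod-like cells *Atp5g1*, *Atp5g2*, and *Atp5g3* gave 37.1%, 36.0%, and 26.8% of the 32606 subunit c UMIs in WT, and 40.2%, 32.7%, and 27.1% of 40775 in ND6. Cone-like cells were similar, at 38.2%, 31.7%, and 30.1% in WT and 40.4%, 29.7%, and 29.9% in ND6. In RPE-like cells *Atp5g1* alone gave 48.6% (46.7% to 50.4%) in WT and 50.3% (48.4% to 52.3%) in ND6. In amacrine-like cells *Atp5g3* was the largest instead. It gave 45.5% (42.2% to 48.7%) in WT and 38.1% (35.9% to 40.4%) in ND6, against 27.3% and 31.9% for *Atp5g2*. In bipolar-like cells its share of 36.6% (34.4% to 38.8%) in WT and 34.3% (32.9% to 35.7%) in ND6 did not stand apart from that of *Atp5g2*, at 33.1% (30.9% to 35.2%) and 34.0% (32.6% to 35.4%).

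The lowest *Atp5g3* share was that of macrophage- or microglia-like cells, at 19.8% (16.8% to 23.1%) in WT and 18.1% (13.8% to 23.1%) in ND6, where *Atp5g2* gave 47.8% and 41.1%. The order of classes by *Atp5g3* share, from macrophage- or microglia-like over RPE-like and rod-like over cone-like to bipolar-like and amacrine-like cells, was the same in both libraries. The intervals of neighbors in that order overlapped only between macrophage- or microglia-like and RPE-like cells in ND6. Over the alternatives the rod-like share ran from 23.7% to 28.1% in WT, which spans the RPE-like share of 24.8%, and from 25.7% to 27.7% in ND6, so the place of rod-like above RPE-like cells in WT depends on the processing. Müller-like cells kept no fixed place, at 34.0% (30.3% to 37.8%) in WT and 25.6% (20.9% to 30.8%) in ND6. In barcodes of 10 to 100 UMIs the *Atp5g3* share was 24.2% in WT, near that of rod-like cells, and 35.2% in ND6. Shares are of UMIs and not of protein.

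**Figure D5:**
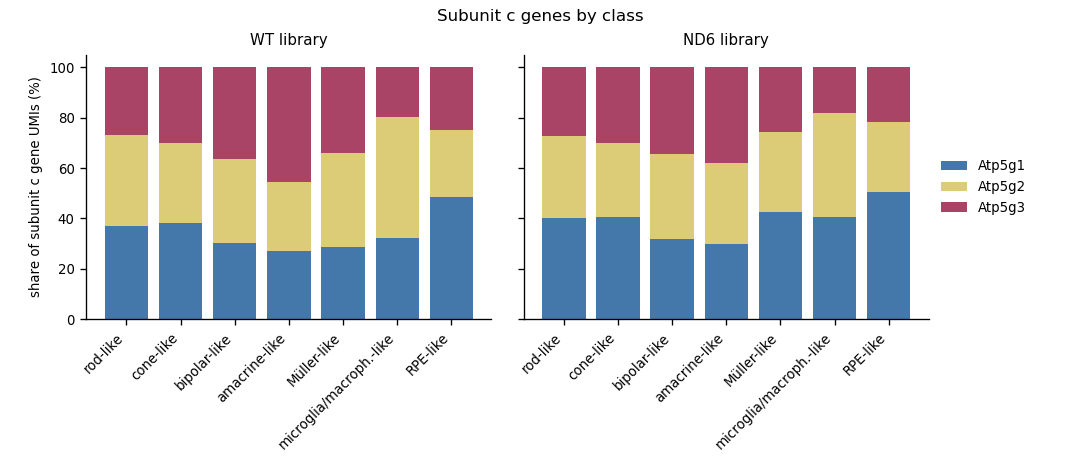
Share of each subunit c gene in the summed UMIs of all 3, in percent, by class, in WT (left) and ND6 (right). *Atp5g1* (blue) is largest in RPE-like cells at 48.6% and 50.3%, and *Atp5g3* (red) in amacrine-like cells at 45.5% and 38.1%.

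Genes that work with these subunits were read from lists by name. Of 17 assembly factors of complexes II, III, and V, 8 were higher and 9 lower in ND6 over all cells, with a median of −0.05 against 0.16 for the subunits. The highest ratios were those of *Lyrm7*, the factor that escorts the Rieske protein (6.69 and 10.6 CPM, 0.66), and *Sdhaf4*, which helps flavinated SDHA join SDHB (113 and 162 CPM, 0.52). The lowest were those of *Atpsckmt*, a methyltransferase for subunit c (16.2 and 10.3 CPM, −0.65), and *Atpaf2*, a chaperone of the F1 head (16.0 and 10.8 CPM, −0.57). No assembly factor of complex II moved with *Sdhd* to a like extent, and *Sdhaf2*, the lowest of them, stood at 35.6 and 30.9 CPM (−0.20). Over all cells the mtDNA-encoded partners were lower in ND6, *mt-Cytb* at 12229 and 10866 CPM (−0.17), *mt-Atp6* at 15372 and 13285 CPM (−0.21), and *mt-Atp8* at 260.2 and 92.1 CPM (−1.50). *mt-Atp8* was lower in all 7 classes (−1.58 to −1.03), but *mt-Cytb* and *mt-Atp6* were higher in ND6, with intervals above 0, in Müller-like (0.53 and 0.45), amacrine-like (0.09 and 0.05), and RPE-like cells (0.08 and 0.07). These mtDNA-encoded genes count toward the limit on mtDNA-encoded UMIs by which cells were kept. That limit cut the libraries unequally, leaving 12529 of 23176 WT barcodes and 18395 of 22256 ND6 barcodes. Its part in these ratios, over all cells and in the classes, was not tested. The RPE-like ratios are sums over clusters that the libraries filled differently, and no values within clusters are given for these genes. *mt-Atp8* overlaps *mt-Atp6* on the mtDNA, so their counts may depend on how reads in the overlap were assigned.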

How the data were processed

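The authors aligned and counted the reads with Cell Ranger 3.0.2 against mm10 per the submitters' processing notes, and deposited raw UMI counts per gene and barcode for 1 WT and 1 ND6 library; the annotation release is not given in the sources used here. The libraries held 77958836 and 80358255 UMIs, of which 54524401 and 62949610 lay in the cells kept. Counts were summed per library and class and divided by the UMIs of those cells. Clusters came from Leiden clustering (leidenalg 0.10.2, igraph 0.11.9, resolution 1) on 30 components of 3000 variable genes and 20 neighbours, without the members, with genes scaled within each library. A cluster of at least 20 cells was named where at least 3 markers were raised 2-fold, with a 50 CPM pseudocount added to the levels. Its leading 10 genes also had to not contradict the name. The comparison was with all other cells, except for rod-like clusters. Those were set against the named clusters that were neither rod-like nor cone-like. Rod-like clusters of 2408 WT and 2866 ND6, 974 and 1504, and 1262 and 883 cells had no rod marker among their leading genes. Of 27 clusters, 5 stayed unnamed. No doublet caller was run and no doublets were removed. Ratios have exact conditional intervals and shares Clopper-Pearson intervals. All genes entered the background with at least 500 UMIs over all cells or against rod-like cells and 100 between libraries in a class, and the listed genes with 100. Within a class the 3 highest and 3 lowest members were named, across classes the 3 highest and 3 lowest with a shared direction, and the subunit c genes, Sdha, and Sdhb in every class. No test was run, since each genotype had 1 library. The calculations used Python 3.11.15, numpy 2.4.6, scipy 1.17.1, pandas 2.3.3, and scikit-learn 1.9.0, with figures from matplotlib 3.10.9, and the ratio calculation was tested on simulated data. The alternatives changed cell weights, scaling, cell limits, and clustering. The members and lists were chosen with earlier results of these data known, and the rule for naming clusters was settled after the clusters were seen. Weighting clusters alike, the Malat1 split, and the values within single RPE-like, bipolar-like, and amacrine-like clusters were added after seeing the data.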

Additional observations from a re-analysis of the deposited data

How the results depend on the processing

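Values are medians over the members on the log2 scale. For ND6 over WT, weighting cells equally gave 0.10 over all cells (0.16 as reported), 0.14 in rod-like cells (0.23), and 0.070 in cone-like cells (0.16). Leaving out the highest 10% of UMIs gave 0.097, 0.19, and 0.093. An mtDNA limit of 10% gave 0.21 over all cells. In rod-like cells median of ratios scaling gave 0.28, Leiden resolution 2 gave 0.071, clusters weighted alike gave 0.12, and scaling over both libraries gave −0.16, with *Atp5o* at −0.13, *Uqcr11* at −0.099, and *Atp5g1* at −0.016. That scaling gave 0.060 in cone-like and −0.26 in RPE-like cells (−0.13 as reported), and clusters weighted alike gave 0.080 in RPE-like cells, with *Atp5md* at 0.18. Relative to rod-like cells, the medians of the WT and ND6 mean were −0.16 (cone-like), −0.02 (bipolar-like), −0.07 (amacrine-like), −0.41 (Müller-like), −0.43 (macrophage- or microglia-like), and 0.46 (RPE-like). Weighting cells equally gave −0.086 for cone-like, −0.34 for amacrine-like, −0.73 for Müller-like, −0.38 for macrophage- or microglia-like, and 0.29 for RPE-like cells, and an *Atp5g1* share of 45.9% in WT RPE-like cells. In the order above, median of ratios scaling gave −0.40, −0.23, −0.38, −0.28, −0.34, and 0.66, and Leiden resolution 2 gave −0.52, −0.38, −0.32, −0.20, −0.79, and 0.16. At that resolution the Müller-like class took in cells left unnamed before and held 1019 WT and 1090 ND6 cells (776 and 1671 with scaling over both libraries, 36 and 91 as reported), so its values there are of other cells. The 10% mtDNA limit gave −0.11 for cone-like and −0.33 for Müller-like cells. For Müller-like cells at least 1000 UMIs gave −0.38, no highest 10% gave −0.63, and scaling over both libraries −0.41. For macrophage- or microglia-like cells the last of these gave −0.70 and leaving out the highest 10% −0.48, and for bipolar-like cells scaling over both libraries gave −0.27. The cause of these shifts was not tested. Of the other values, 1143 moved by less than their interval, 345 by more, and 4 were counted as reversed. The 4 are *Atp5o*, *Uqcr11*, and *Atp5g1* in rod-like and *Atp5md* in RPE-like cells. They are not every change of sign. The rod-like and RPE-like medians above also turned, and values counted as moved can have turned as well. No paired analysis was possible because each genotype has a single library, and leaving out a replicate was not possible for the same reason. Counting error limits Müller-like and macrophage- or microglia-like cells most.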
